A study of Mus musculus with 11 samples.

Results

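Krt10, Ugcg, Nfib and Msi1 were grouped as keratinocyte differentiation, barrier and progenitor genes. These are 4 of the 178 genes in a deposited RNA sequencing table of mouse gingival epithelium. They were taken by gene name, and all 4 passed the filter on low counts. The removal group (n = 4 libraries) came from mice with a silk thread tied around both upper second molars and taken off on day 3. The ligature group (n = 3) kept the thread, a model of periodontitis, and the naive group (n = 4) is labelled as naive, which is read here as mice without a thread. All mice are described as male B6, the epithelium was lifted from the gingiva with the enzyme Dispase, and libraries were made from polyA RNA with a strand-preserving kit. The day of tissue collection is not given in the sources used here, and nothing states that each library is a different animal. The p-values therefore describe the scatter among these libraries, which may be technical.

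Keratinocytes are born in the basal layer of the gum epithelium and differentiate as they move outward. Keratin 10 is made by suprabasal cells of keratinising epithelium, where it pairs with keratin 1 in the filaments that stiffen the cell. Glucosylceramide synthase, the product of Ugcg, adds glucose to ceramide, and in skin the glucosylceramides are secreted and turned back into the ceramides of the permeability barrier. Nfib encodes a transcription factor of the nuclear factor I family that acts in stem cells of the hair follicle, and Msi1 encodes Musashi 1, an RNA-binding protein that controls translation and is used as a marker of progenitor cells in nerve and gut.

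The table gave counts for a small part of each library, with sums of 282274 to 503570 counts per library over its 178 genes. These sums are not the sequencing depth, which is unknown. In DESeq2 with a term for 2 library sets recovered from the table, the smaller of the unadjusted p-values of ligature and of removal against naive did not exceed 0.0103 for any gene. The table therefore holds genes that already differ between these groups, and a call among them is not independent evidence. Of 74 marker genes for 15 cell types, 2 were in the table, the suprabasal marker Krt10 and the macrophage marker Cd68, so the label epithelium could be set against its markers only through Krt10. None of the 7 basal keratinocyte markers was in it. Krt10 alone took 20.7% to 43.6% of the table's counts in a library.

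The sequence just upstream of Krt10 is shown because this gene supplied the largest share of the counts of the 4. It is the 250 bases before the RefSeq start on the minus strand of the build GRCm38.p6, at chr11:99389365-99389614, and the capitals mark a TATAAA box that begins 26 bases before the start.
Krt10: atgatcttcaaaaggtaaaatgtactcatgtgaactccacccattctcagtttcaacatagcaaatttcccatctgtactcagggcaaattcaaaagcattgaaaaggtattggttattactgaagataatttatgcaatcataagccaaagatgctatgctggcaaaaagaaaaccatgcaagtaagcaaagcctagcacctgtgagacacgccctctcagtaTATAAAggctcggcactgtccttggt
RefSeq upstream sequences were found for 2 of the 4 genes, Krt10 and Ugcg. The letters TATAAA, on either strand, occurred in 13.0% of the upstream windows of 27025 genes, in that of Krt10 and not in that of Ugcg. The Krt10 window had 39.6% G and C bases and 2 CG dinucleotides, the Ugcg window 80.4% and 43, and the median window 52.0% and 6. A missing match says only that these letters are not in that window.

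With the ligature in place, Krt10, Nfib and Msi1 were higher and Ugcg was lower than in naive epithelium. The changes were 1.56-fold for Krt10, 1.29-fold for Nfib, 1.92-fold for Msi1 and 0.792-fold for Ugcg. In this comparison 3 of the 4 genes were called higher and 1 lower (edgeR quasi-likelihood test with Benjamini-Hochberg adjustment over 176 genes, adjusted p under 0.05). Of all genes tested, 28.4% were called higher and 56.8% lower, 85.2% together, so a call in itself does not set these genes apart in a table selected this way. The median log2 fold change was 0.50 over the 4 genes and -0.38 over the 176 genes. After removal, 1 of the 4 genes, Msi1, was called higher than in naive epithelium and none lower, beside 13.1% and 24.4% of all genes and 37.5% in either direction, with medians of 0.35 over the 4 genes and -0.17 over the 176.

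Krt10 (ENSMUSG00000019761), the suprabasal keratin, had normalised read counts of 88347, 149110.4, 162606 and 129809.7 in removal libraries 1 to 4, 187178, 116428 and 133288 in ligature libraries 1 to 3, and 109641, 91942, 90595 and 81960 in naive libraries 1 to 4. A normalised read count is the raw count divided by the size factor of its library. Each ligature library was above each naive library, while removal library 1 lay inside the naive range and the other 3 above it. The spread within the groups was wide, with a mean of 132468 ± 32347 in removal (SD, n = 4), 145632 ± 36955 in ligature (n = 3) and 93534 ± 11613 in naive epithelium (n = 4).

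Krt10 rose under ligature by 0.64 ± 0.22 against naive (log2 fold change ± SE, edgeR adjusted p = 0.0182), a call that was lost without ligature library 1 (0.42) or naive library 4 (0.58). In removal against naive its log2 fold change was 0.50 ± 0.21 and did not pass the test (edgeR adjusted p = 0.0683). Without removal library 1 that value was 0.65 and called. Removal against ligature gave -0.14 ± 0.22 (edgeR adjusted p = 0.627), with a direction that turned to 0.015 without removal library 1 and to 0.085 without ligature library 1.

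A transcript annotated on the opposite strand of Krt10, Gm11940 (ENSMUSG00000087692), is in the table as well and was looked at after its values were seen. Its counts were 0.223% to 0.260% of those of Krt10 in removal libraries, 0.225% to 0.323% in ligature libraries and 0.215% to 0.317% in naive libraries. These ranges overlap between the groups. Gm11940 averaged 314.7 ± 71.4 normalised counts in removal, 392.3 ± 184.8 in ligature and 242.7 ± 33.2 in naive epithelium (SD, n = 4, 3 and 4). Its ligature against naive value was 0.69 ± 0.27 (edgeR adjusted p = 0.0315). The call was lost without ligature library 1 (0.24), without naive library 1, 3 or 4 (0.68, 0.66 and 0.65) and with the replicate number as a block (0.66). The kit marks strand but the strand setting of the counting is not given in the sources used here, so reads of Krt10 and Gm11940 cannot be told apart. Nfib and Msi1 also have annotated genes on the opposite strand, and Ugcg has none.

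Ugcg (ENSMUSG00000028381), the glucosylceramide synthase, had 2321, 3073, 2929 and 2865 normalised counts in removal libraries 1 to 4, 2381, 2005 and 2303 in ligature libraries 1 to 3, and 2976, 3029, 2484 and 2771 in naive libraries 1 to 4. All 3 ligature libraries were below all 4 naive libraries, and the naive range held 2 removal libraries, with 1 above it and 1 below. Means were 2797 ± 329 in removal, 2230 ± 198 in ligature and 2815 ± 247 in naive epithelium (SD, n = 4, 3 and 4).

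Ugcg fell by 0.34 ± 0.11 on the log2 scale in ligature against naive epithelium (edgeR adjusted p = 0.0174). This is the 1 call of the 4 that depends on the scaling: with TMM factors computed over the table the value was 0.026. Without ligature library 2 it was -0.27 and not called. In removal against naive the value was -0.01 ± 0.11 (edgeR adjusted p = 0.952), and it was 0.19 and called with TMM. Removal against ligature gave 0.33 ± 0.11, which missed the threshold (edgeR adjusted p = 0.0620) and passed it in DESeq2 or without removal library 1 (0.41).

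Nfib (ENSMUSG00000008575), the nuclear factor I transcription factor, had 2522, 1898, 2225 and 2089 normalised counts in removal libraries 1 to 4, 2290.3, 2496 and 2603 in ligature libraries 1 to 3, and 1769, 1774, 2097 and 2004 in naive libraries 1 to 4. The ligature libraries were all above the naive ones, and the removal libraries spanned both ranges, with removal library 1 among the ligature values. Its means were 2184 ± 263 in removal, 2463 ± 159 in ligature and 1911 ± 166 in naive epithelium (SD, n = 4, 3 and 4).

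Nfib rose under ligature by 0.37 ± 0.11 against naive (edgeR adjusted p = 0.00898), and it was called in all 11 fits with a library left out (0.32 to 0.42). Removal against naive gave 0.19 ± 0.10 (edgeR adjusted p = 0.128), and removal against ligature -0.17 ± 0.11 (edgeR adjusted p = 0.234).

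Msi1 (ENSMUSG00000054256), the Musashi RNA-binding protein, had 299.2, 320.3, 409.8 and 233.2 normalised counts in removal libraries 1 to 4, 521.5, 382.4 and 358.0 in ligature libraries 1 to 3, and 253.2, 200.5, 240.3 and 184.5 in naive libraries 1 to 4. Every ligature library exceeded every naive library, and 3 of the 4 removal libraries did so too. Removal library 4 lay within the naive range and removal library 3 within the ligature range. The means were 315.6 ± 73.0 in removal, 420.6 ± 88.2 in ligature and 219.6 ± 32.4 in naive epithelium (SD, n = 4, 3 and 4).

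Msi1 rose under ligature by 0.94 ± 0.20 against naive (edgeR adjusted p = 0.00274), the sixth highest log2 fold change of the 176 genes, and it was called in all 11 fits with a library left out (0.75 to 1.04). After removal it was still higher than naive, by 0.52 ± 0.19 (edgeR adjusted p = 0.0460), but that call was lost in 9 of those 11 fits. The difference of removal from ligature was -0.42 ± 0.20 and did not pass the test (edgeR adjusted p = 0.149). In these bulk samples, a change in the number of cells of a type and a change in RNA per cell cannot be told apart.

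**Figure D1:**
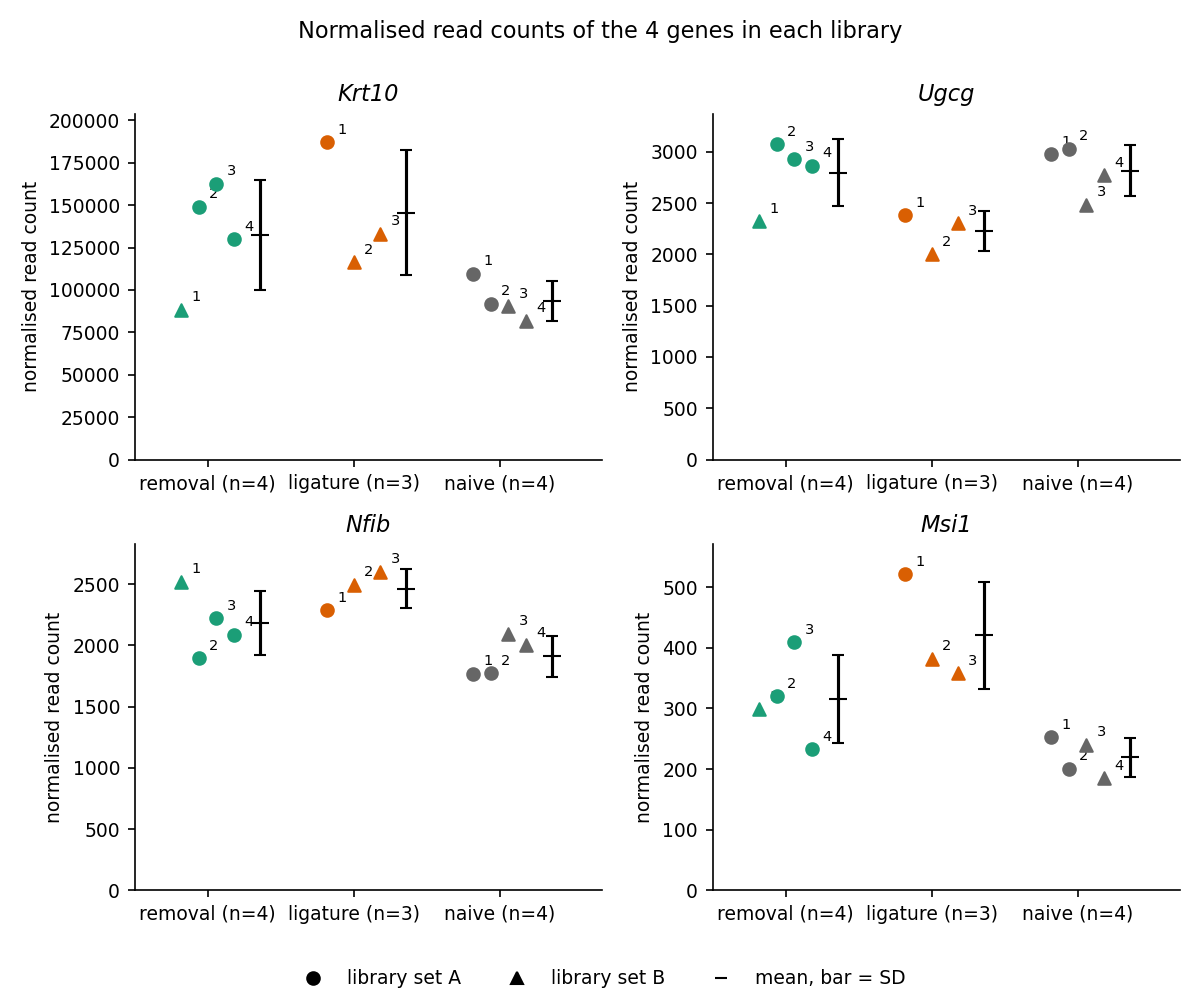
Normalised read counts (vertical axis, linear, starting at 0) of Krt10, Ugcg, Nfib and Msi1 in each library of the removal, ligature and naive groups, with the replicate number beside each point, the library set as its shape, and the mean with a bar of 1 SD. The ligature points of Krt10, Nfib and Msi1 lie above all naive points, those of Ugcg below them, and the removal points overlap the naive points in all 4 panels.

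Between removal and ligature none of the 4 genes was called by edgeR. The unadjusted p was under 0.05 for 1 of them, Ugcg (0.0148), and DESeq2 called that 1 gene higher, beside 24.2% of all genes. In this comparison 19.9% of all genes were called, 17.0% higher and 2.84% lower, a total of 35 genes that became 0 without removal library 2 or 4 or ligature library 1 or 2. The median was -0.16 over the 4 genes and 0.20 over the 176 genes. The ligature and naive libraries were fully apart for all 4 genes, beside 74.4% of all genes tested. For none of the 4 were removal and naive, or removal and ligature, apart, beside 43.8% and 29.5% of all genes. The 2 comparisons against naive share the naive libraries, so their values are given side by side and are not independent.

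**Figure D2:**
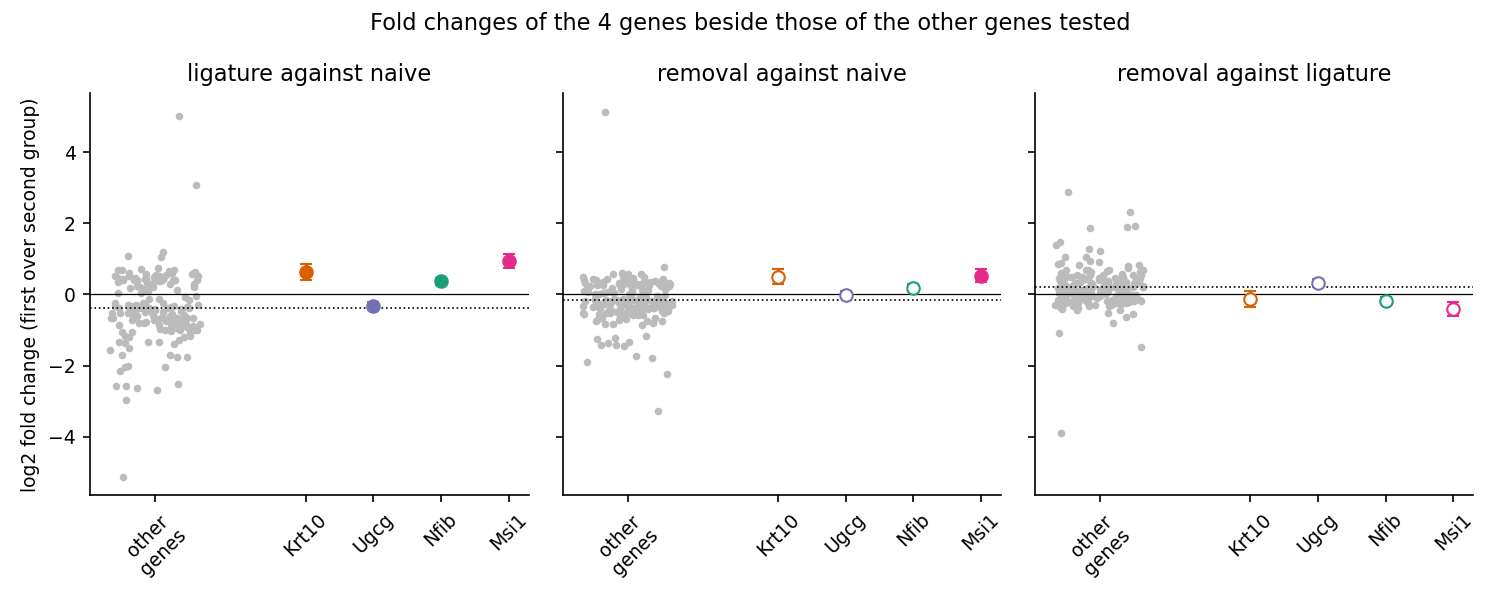
Log2 fold change (vertical axis) of each of the 4 genes with its SE, for ligature against naive, removal against naive and removal against ligature, beside grey points for the other genes tested; filled points were called and the dotted line is the median of all 176 genes. In ligature against naive 3 of the genes lie well above the median of -0.38 and Ugcg close to it; in removal against naive Msi1 alone is filled, and in removal against ligature none is.

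TMM factors over the table raised the median of all genes by 0.36 in ligature against naive and by 0.20 in removal against naive, and moved it by -0.16 in removal against ligature. With TMM, ligature against naive was 0.99 for Krt10, 0.026 for Ugcg, 0.73 for Nfib and 1.29 for Msi1, and removal against naive 0.70, 0.19, 0.40 and 0.73. A change of factors moves all genes of a comparison by nearly the same amount, so differences between the 4 genes hardly depend on it. With TMM, 3 of the genes were called higher and none lower in ligature against naive, beside 36.4% and 28.4% of all genes, and all 4 were called higher in removal against naive, beside 28.4%.

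**Figure D3:**
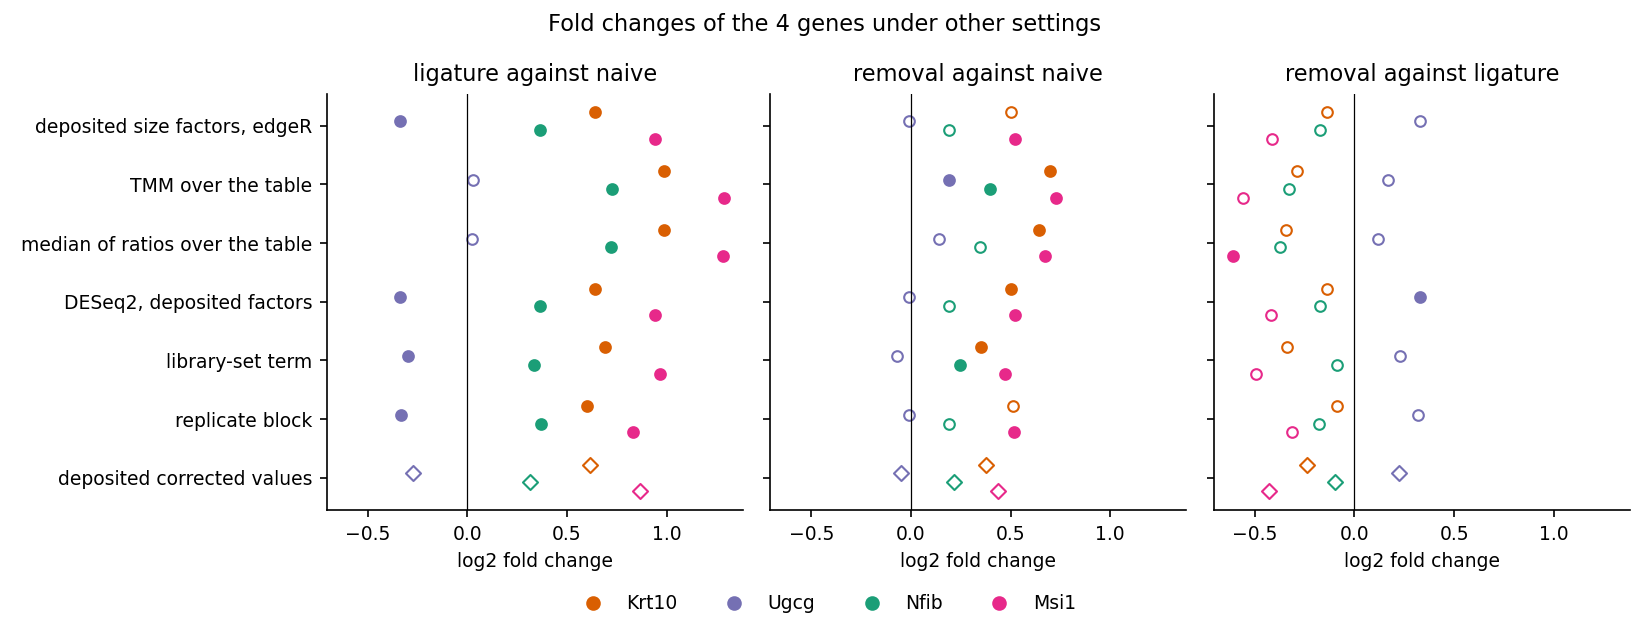
Log2 fold changes (horizontal axis) of the 4 genes under each setting (rows), in 3 panels for ligature against naive, removal against naive and removal against ligature; filled circles were called, and the diamonds of the bottom row are differences of log2 corrected values with no call. Ugcg moves from -0.34 to 0.026 between the top row and TMM in ligature against naive, where Krt10, Nfib and Msi1 are filled in each row of circles.

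A ratio of 2 genes in the same library needs no size factor. The counts of Krt10 per count of Ugcg, a ratio chosen after the data were seen, were 38.1, 48.5, 55.5 and 45.3 in removal libraries 1 to 4, 78.6, 58.1 and 57.9 in ligature libraries 1 to 3, and 36.8, 30.4, 36.5 and 29.6 in naive libraries 1 to 4. On this measure the 3 groups did not overlap, with ligature highest, removal between and naive lowest, although the gap between removal library 1 and the highest naive library was small. The separation of ligature from naive follows from the normalised counts, where Krt10 was higher and Ugcg lower in every ligature library. It therefore adds nothing to them, and the same holds for the ratios of Msi1 and Nfib below. How many other pairs of genes separate the groups was not counted. No test is given, because genes and ratio were chosen with results known.

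Msi1 per count of Ugcg was 0.129, 0.104, 0.140 and 0.0814 in removal libraries, 0.219, 0.191 and 0.155 in ligature libraries, and 0.0851, 0.0662, 0.0968 and 0.0666 in naive libraries. All ligature libraries were above the rest, and removal overlapped naive through removal library 4. Nfib per count of Ugcg was 1.09, 0.618, 0.760 and 0.729 in removal libraries, 0.962, 1.24 and 1.13 in ligature libraries, and 0.594, 0.586, 0.844 and 0.723 in naive libraries. Here ligature was above naive, and removal library 1 stood with the ligature libraries and the other 3 with the naive ones. Gene length divides out between libraries in such a ratio but not between genes, so the ratios do not say which gene has more transcripts.

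**Figure D4:**
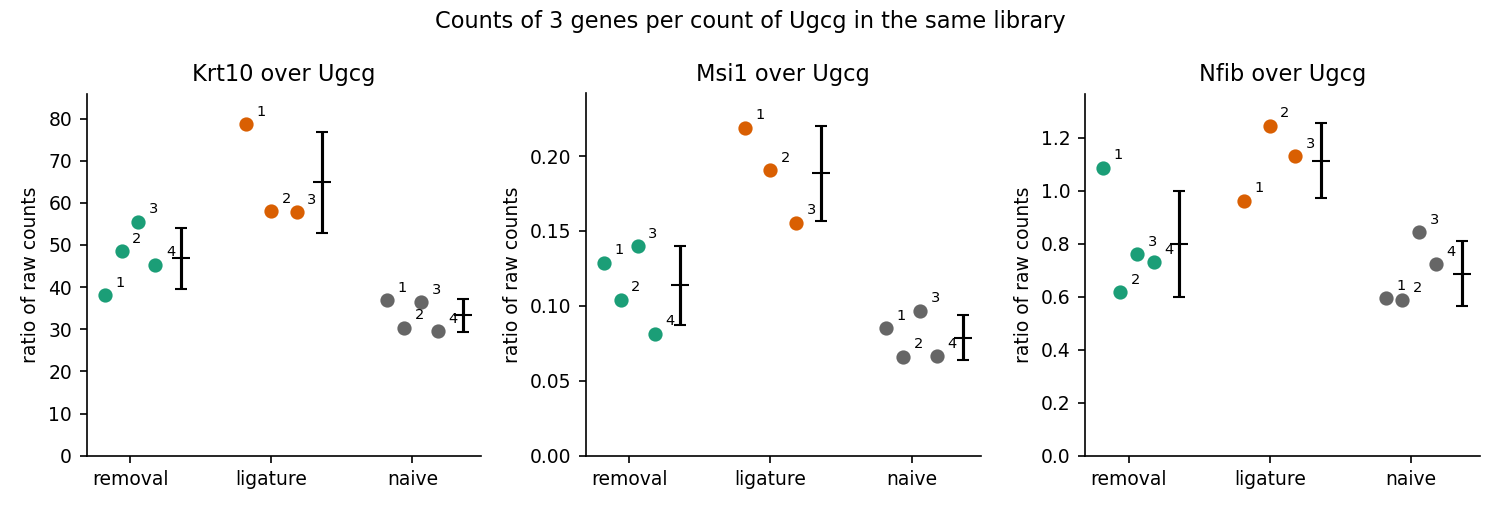
Raw counts of Krt10, Msi1 and Nfib per count of Ugcg (vertical axes, linear, starting at 0) in each library of the removal, ligature and naive groups, with replicate numbers and the mean with a bar of 1 SD. Krt10 over Ugcg, a ratio chosen after the data were seen, separates all 3 groups with narrow gaps, at 38.1 to 55.5, 57.9 to 78.6 and 29.6 to 36.8. The removal points overlap the naive points for Msi1 and Nfib.

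The deposited table also holds values in columns with the prefix bcor, read here as corrected for a batch. Among 957 ways to divide the libraries into 2 sets, 1 turned the step from normalised to corrected value into a straight line for each set. Set A held removal libraries 2, 3 and 4, ligature library 1 and naive libraries 1 and 2, and set B removal library 1, ligature libraries 2 and 3 and naive libraries 3 and 4. The labels give no batch, and what sets the libraries apart was not tested.

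Within these sets, the ligature against naive log2 differences kept their direction for all 4 genes. They were 0.90 in set A and 0.53 in set B for Krt10, -0.33 and -0.29 for Ugcg, 0.37 and 0.31 for Nfib, and 1.21 and 0.81 for Msi1. The removal against naive difference of Krt10 was 0.55 in set A and 0.036 in set B, where removal library 1 is alone. That of Ugcg was -0.02 and -0.18, that of Nfib 0.22 and 0.30, and that of Msi1 0.47 and 0.50. Set A has 1 ligature library and set B 1 removal library, so these are values without a test.

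Removal against ligature within the sets was -0.35 in set A and -0.50 in set B for Krt10, 0.31 and 0.11 for Ugcg, -0.15 and -0.015 for Nfib, and -0.74 and -0.31 for Msi1. The correction changed Krt10 by -8.82% to -8.76% in set A and by 9.86% to 20.4% in set B, and moved Nfib the other way, by 5.58% to 6.83% in set A. In the corrected values Nfib ran from 2021 to 2352 in removal libraries and from 1890 to 1982 in naive libraries, without overlap, whereas its normalised counts overlapped. Exact permutation tests of removal against naive, two-sided and not adjusted over the 4 genes, gave p = 0.0571 for Krt10, 0.343 for Ugcg, 0.0286 for Nfib and 0.0857 for Msi1 on the corrected values. On the normalised counts the same permutation tests gave p = 0.114, 0.857, 0.143 and 0.0857 for the same genes. The smallest p that 4 against 4 allows is 0.0286, which any gene without overlap gets. Corrected Ugcg was also without overlap between removal and ligature, at 2540 to 2899 in removal libraries against 2213 to 2524 in ligature libraries, where the smallest p that 4 against 3 allows is 0.0571. The spread within groups of Nfib and Ugcg was narrower in the corrected values. Cav2 and Dnajb1 likewise overlapped between removal and naive in the normalised counts and not in the corrected values, while Klf6 overlapped in both. Such a separation is therefore not particular to Nfib. The share of all genes without overlap in the corrected values was not counted. With the library set as a term in edgeR, Krt10 (0.35, adjusted p = 0.0480), Nfib (0.25, adjusted p = 0.00889) and Msi1 were called higher in removal against naive, beside 22.7% of all genes.

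Other genes of the same pathways were taken from 6 lists with 144 genes, of which 11 genes were in the table. Because the table holds genes that already differ, counts of calls do not describe a list as a whole. Krt10 was the only one of 40 listed differentiation and cornified envelope genes present, and Ugcg the only one of 34 listed ceramide and barrier lipid genes. The lists left out the cornified envelope gene Lce3d and the ceramidase gene Acer3, which are in the table and are described at the end. In ligature against naive Lce3d was -0.85, opposite to Krt10, and Acer3 0.54, opposite to Ugcg. None of 8 basal and stress keratins and none of 18 tight junction and adhesion genes was in the table, so these groups were not analysed here. The list of nuclear factor I and epithelial progenitor genes had 4 of 28 in the table, Nfib, Nfic, Msi1 and Lgr6. All 4 were called higher in ligature against naive (median log2 fold change 0.44), where 28.4% of all genes were called higher and 85.2% in either direction (median -0.38). In removal against naive 1 of them, Msi1, was called higher (median 0.22), beside 13.1% of all genes (median -0.17), and in removal against ligature none was called (median -0.30), beside 19.9% (median 0.20).

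Nfic, a second member of the nuclear factor I family, had 1956, 1374, 1663 and 1538 normalised counts in removal libraries 1 to 4, 2035, 2091 and 2211 in ligature libraries 1 to 3, and 1354, 1649, 1786 and 1619 in naive libraries 1 to 4. The ligature libraries were above all others, and removal and naive shared a range. Nfic rose under ligature by 0.40 ± 0.12 against naive (edgeR adjusted p = 0.0111), stood at 0.03 ± 0.12 in removal against naive (edgeR adjusted p = 0.846), and at -0.37 ± 0.12 in removal against ligature. The last value missed the threshold (edgeR adjusted p = 0.0542) and was called in DESeq2 and with TMM (-0.52).

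Lgr6, a receptor for R-spondins that marks a stem cell population of the hair follicle, had 178.7, 194.6, 233.3 and 178.8 normalised counts in removal libraries 1 to 4, 254.8, 209.2 and 228.8 in ligature libraries 1 to 3, and 158.2, 175.3, 161.1 and 167.8 in naive libraries 1 to 4. Both removal and ligature libraries were all above the naive libraries, with removal and ligature overlapping. Lgr6 rose under ligature by 0.48 ± 0.14 against naive (edgeR adjusted p = 0.00967), and its removal against naive value of 0.24 ± 0.13 was not called (edgeR adjusted p = 0.141) with the deposited factors, and was called with TMM (0.45) and with median-of-ratios factors (0.40).

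**Figure D5:**
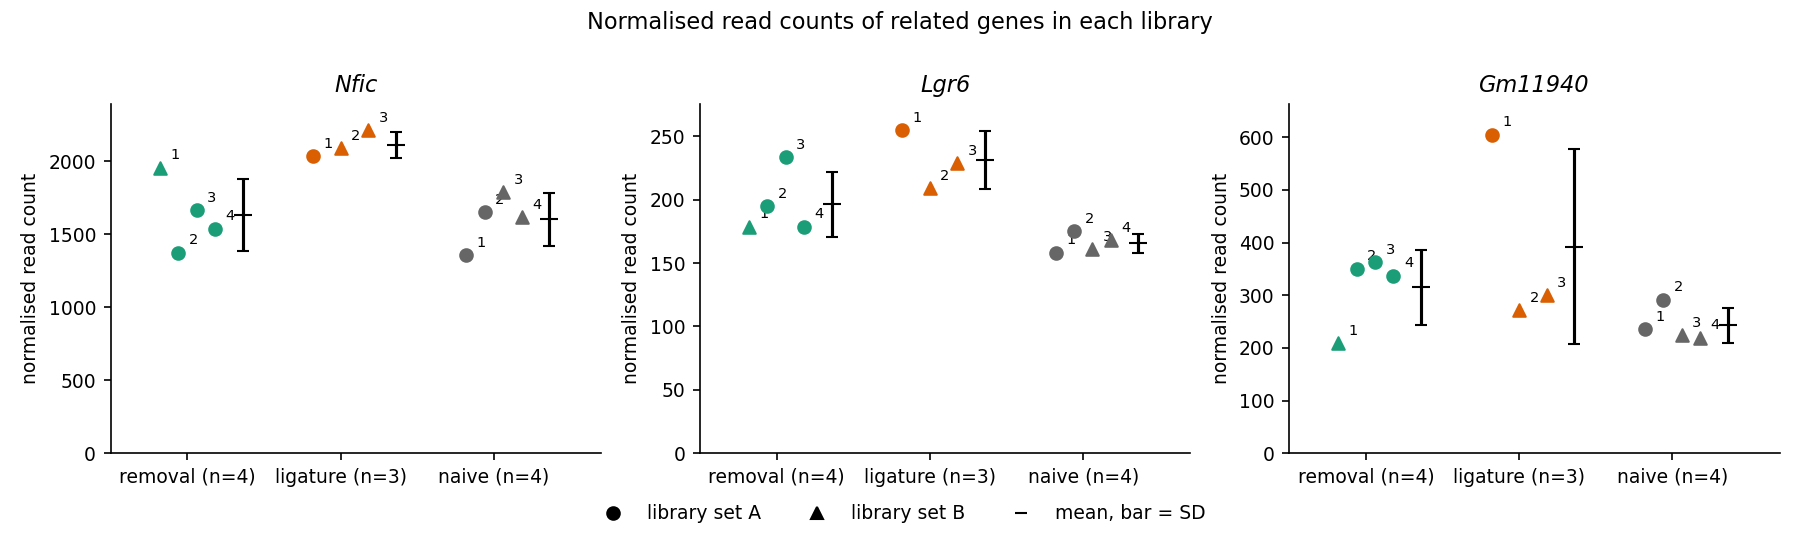
Normalised read counts (vertical axis, linear, starting at 0) of Nfic, Lgr6 and Gm11940 in each library of the removal, ligature and naive groups, with replicate numbers, the library set as the shape and the mean with a bar of 1 SD. The ligature points of Nfic lie above all others, the removal and ligature points of Lgr6 above all naive points, and ligature library 1 stands far above the other Gm11940 points.

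The genes of cycling cells that were in the table were also higher in ligature than in naive epithelium. Listed genes outside the table may be unchanged. All 5 of 17 listed genes that were in the table were called higher in ligature against naive (median 0.53), beside 28.4% of all genes (median -0.38). In removal against naive 2 of the 5 were called higher (median 0.30), beside 13.1% (median -0.17), and in removal against ligature none was called (median -0.20), beside 19.9% (median 0.20). The 2 were Neil3 and the proliferation marker Mki67, and Mki67 was called in 5 of 11 fits with a library left out. Neil3, a DNA glycosylase of proliferating cells, had 189.8, 154.5, 204.9 and 172.2 normalised counts in removal libraries 1 to 4, 230.9, 182.9 and 188.8 in ligature libraries 1 to 3, and 126.6, 117.2, 113.6 and 124.8 in naive libraries 1 to 4. Its removal and ligature libraries were all above the naive ones, and it rose by 0.58 ± 0.15 in removal (edgeR adjusted p = 0.0124) and by 0.74 ± 0.15 in ligature (edgeR adjusted p = 0.00252), each against naive.

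Cd68, the only 1 of 6 macrophage markers in the table, ran from 208.2 to 237.8 normalised counts in removal libraries, from 170.4 to 190.6 in ligature libraries and from 221.9 to 335.7 in naive libraries. It fell by 0.67 ± 0.16 in ligature against naive (edgeR adjusted p = 0.00402), and by 0.31 without a call when scaled with TMM. The marker lists of neutrophils, T cells, B and plasma cells, Langerhans and dendritic cells, fibroblasts, endothelium, melanocytes, Merkel cells, salivary gland, muscle and nerve had no gene in the table. In removal against naive Cd68 stood at -0.37 ± 0.15 and was not called (edgeR adjusted p = 0.0610). Its part in the results of the 4 genes was not tested.

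The 4 genes did not vary together as 1 group. Over the 11 libraries, on log2 of the normalised count plus 1, Ugcg and Nfib had a Pearson correlation of -0.85, and of -0.84 once each library was set against its group mean. Krt10 and Msi1 had 0.81, and 0.62 against group means. Krt10 and Ugcg had 0.02 over all libraries but 0.80 against group means: the libraries of a group with more Krt10 tended to have more Ugcg, while the ligature group as a whole had more Krt10 and less Ugcg. These correlations are descriptions over libraries that share size factors and library sets. Setting libraries against their group means leaves differences between the library sets in place. The correction moved Krt10 and Ugcg down in set A and up in set B, and Nfib the other way. The part of the sets in these correlations was not tested.

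By the same measure the genes of the table most like Krt10 were Fras1 (0.91), which encodes a protein of the epithelial basement membrane, Camta1 (0.87) and Fryl (0.86). Most like Ugcg were Pglyrp4 (0.98), a secreted protein that binds bacterial peptidoglycan, the membrane serine protease Tmprss4 (0.96) and the heat shock chaperone Hspa1b (0.96). Most like Nfib were Jade1 (0.93), Ccer2 (0.91) and the scaffold protein Iqgap2 (0.89), and most like Msi1 were Fryl (0.95), the nuclear envelope protein Syne2 (0.93) and Vps13c (0.92). The first of each stayed high with the libraries set against their group means, at 0.83 for Fras1, 0.95 for Pglyrp4, 0.88 for Jade1 and 0.84 for Fryl with Msi1. These values still hold any difference between the library sets.

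Pglyrp4 followed Ugcg with a wider swing. It had 370.7, 600.4, 595.1 and 559.4 normalised counts in removal libraries 1 to 4, 351.9, 265.6 and 303.2 in ligature libraries 1 to 3, and 634.0, 633.6, 363.1 and 481.5 in naive libraries 1 to 4. The ligature libraries were below all others, and removal library 1 and naive library 3 were the lowest of their groups, as they were for Ugcg. Both of these libraries belong to set B. Removal against ligature gave 0.79 ± 0.22 (edgeR adjusted p = 0.0276), a call lost in 6 of 11 fits with a library left out and with the replicate number as a block (0.80). Ligature against naive gave -0.78 ± 0.22 (edgeR adjusted p = 0.00704), a call lost with TMM (-0.41) and with median-of-ratios factors (-0.42).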

How the data were processed

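RNA sequencing of 11 libraries in 3 groups, assigned by their titles, was analysed from 1 deposited table with 993339 rows, all empty but the 178 that carry a gene (993161 blank rows). Raw counts, normalised counts (a signal, equal to the raw count over 1 size factor per library of 0.757 to 1.21 within 0.0032) and batch-corrected counts were deposited by the authors; the last have 7 values below 0 and no stated method. Per the submitters' processing notes, the build was GRCm39 and the tools were DESeq2 1.36.0, HTSeq 2.01, TopHat2 2.1.1 and cutadapt 2.10, with no role or order given. The reference at hand was GRCm38, so coordinates are given only for the RefSeq sequence. The reference holds 177 of the 178 identifiers.

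The test on raw counts was the quasi-likelihood F test of edgeR 4.0.16 in R 4.3.3, two-sided, 1 fit of 11 libraries with a mean per group, the deposited size factors, the default count filter by group (176 genes kept; Smr2 and Usp9y left out) and Benjamini-Hochberg adjustment over the 176, with calls under 0.05. The script was tested on simulated data. Alternatives were table-wide TMM factors, median-of-ratios factors, no filter, DESeq2 1.42.0, a library-set term, a replicate block, only the 2 groups compared, and each library left out; within-set differences and ratios to Ugcg were added after seeing the data. Normalised and corrected values were compared by permutation tests over all divisions of the libraries, which are not exact for the corrected values. Library sets came from the split with a median residual of 3.73e-05% of the mean, against 1.57% for the next. Depth is unknown, so no counting interval is given. Libraries of a group differed by more than counting noise (smallest chi-square per degree of freedom 20.4).

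The 4 genes and the gene lists were chosen with earlier results of these data known. Named genes were the 4, the 3 genes of highest correlation with each (leaving out ribosomal protein genes, pseudogenes and predicted models), and at most 3 per pathway list; Gm11940, Lce3d and Acer3 were chosen after their values were seen.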

Additional observations from a re-analysis of the deposited data

How the results depend on the processing

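Values of all 4 genes depend on the scaling: with TMM, ligature against naive was 0.99 for Krt10, 0.73 for Nfib and 1.29 for Msi1. Ugcg in ligature against naive turned to 0.026 with TMM and 0.025 with median-of-ratios factors, and in removal against naive to 0.19 and 0.14; by construction those factors centre a table in which most calls are lower. Krt10 in removal against naive was called with TMM (0.70), median-of-ratios factors (0.64), DESeq2 (0.50) and a library-set term (0.35), Nfib there with TMM (0.40) and the set term (0.25), Ugcg in removal against ligature with DESeq2 (0.33) and Msi1 there with median-of-ratios factors (-0.61); the cause was not tested. The set term gave 126 called genes in removal against naive, against 66 without it. In removal against naive Lce3d was -0.087 and Pglyrp4 -0.12 with it. Within set B, removal against naive was 0.036 for Krt10 and -0.18 for Ugcg, and removal against ligature 0.11 for Ugcg and -0.015 for Nfib. Within set A, Msi1 was 1.21 in ligature against naive and -0.74 in removal against ligature.

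With each library left out in turn, ligature against naive ran from 0.42 to 0.78 for Krt10, -0.39 to -0.27 for Ugcg, 0.32 to 0.42 for Nfib and 0.75 to 1.04 for Msi1. Removal against naive ran from 0.39 to 0.65, -0.065 to 0.070, 0.12 to 0.25 and 0.37 to 0.64, and removal against ligature from -0.27 to 0.085, 0.26 to 0.41, -0.25 to -0.11 and -0.57 to -0.23 for the same genes. Called genes ran from 130 to 154, 38 to 78 and 0 to 49 in these comparisons. Removal against ligature had 0 called genes without removal library 2 or 4 or ligature library 1 or 2 (53, 49, 72 and 52 at an unadjusted p under 0.05), 3 without ligature library 3 and 21 without removal library 3; removal against naive had 38 without removal library 3, 43 without naive library 1 and 42 without naive library 4. Nfic ran from -0.071 to 0.10, Lce3d from -0.14 to 0.12 and Pglyrp4 from -0.13 to 0.15 in removal against naive, and Gm11940 from -0.52 to 0.14 in removal against ligature.

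Whether replicate numbers pair the libraries could not be settled. Same-numbered libraries had correlations of deviations from -0.48 to 0.53 over 10 pairs, and 3 of 11 libraries correlated best with their own number. Pairs within a library set were positive (0.53, 0.40 and 0.10) and pairs across the sets negative, so this check followed the sets. With the replicate number as a block, ligature against naive was 0.60 for Krt10, -0.33 for Ugcg, 0.37 for Nfib and 0.83 for Msi1, all called. Of the 176 genes, 44 were called higher and 95 lower in that fit, so these calls do not set the 4 genes apart. Called genes in removal against ligature fell to 8, against 35 without the block.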

Other observations

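A pair of genes close in function to those above, but on none of the lists, were chosen after their values were seen. Lce3d, a late cornified envelope protein of the outermost keratinocytes, had 429.9, 678.6, 703.1 and 458.9 normalised counts in removal libraries 1 to 4, 377.5, 260.8 and 297.6 in ligature libraries 1 to 3, and 603.4, 585.1, 371.0 and 685.4 in naive libraries 1 to 4. All ligature libraries were below all removal libraries, and naive library 3 lay among the ligature values. Lce3d fell by 0.85 ± 0.24 in ligature against naive (edgeR adjusted p = 0.00704), a call lost with TMM (-0.48). It was higher by 0.86 ± 0.24 in removal than in ligature (edgeR adjusted p = 0.0276), a call lost in 6 of 11 fits with a library left out and with the replicate number as a block (0.86). In ligature against naive the late cornified envelope gene was thus lower where the suprabasal keratin Krt10 was higher.

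Acer3, an alkaline ceramidase that breaks ceramide down, had 505.8, 428.4, 489.4 and 392.2 normalised counts in removal libraries 1 to 4, 539.4, 440.8 and 596.1 in ligature libraries 1 to 3, and 381.9, 296.4, 394.8 and 372.6 in naive libraries 1 to 4. Its ligature libraries were all above its naive libraries, and removal overlapped both. Acer3 rose by 0.54 ± 0.14 in ligature against naive (edgeR adjusted p = 0.00638), where Ugcg, which uses the same substrate, fell by 0.34 with the deposited factors. Removal against naive gave 0.33 ± 0.14 for Acer3 (edgeR adjusted p = 0.0683), and it was called with TMM (0.53), median-of-ratios factors (0.48) and a library-set term (0.36).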
